A study of Mus musculus with 6 samples.

Results

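The 38 genes of endoplasmic reticulum (ER) folding and stress were taken by name, as ER chaperones, disulphide enzymes, translocon subunits, unfolded protein response and degradation genes, and heat shock genes. Of these, 35 had a probe set that the platform annotation ties to 1 gene, and the brightest probe set over the 6 arrays stands for each gene. No such probe set was found for Sec61g, Hsp90ab1 and Hsf1, which are not analysed here. The filter on dim probe sets left 34 genes. Only Trib3, a kinase-like inhibitor induced by Atf4 and Ddit3, was below it, at 58.7, 42.6 and 39.0 in knockout retinae and 66.1, 60.5 and 39.4 in wildtype retinae, and it was not tested.

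Proteins that leave the cell or sit in its membranes are threaded into the ER through the Sec61 channel, folded there by chaperones and joined by disulphide bonds. When folding falls behind, the sensors Ern1, Eif2ak3 and Atf6 start the unfolded protein response, which raises chaperone and degradation genes and, when it lasts, the death-linked factor Ddit3. Cytosolic and mitochondrial proteins have heat shock chaperones of their own, under the factor Hsf1. Photoreceptors are heavy users of this machinery, because opsins and other outer segment proteins pass through the ER.

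The arrays measured total RNA of mouse retina at postnatal day 7. There were 3 arrays of knockout mice and 3 of wildtype mice, both labelled C57BL/6. Nothing in the labels says that the arrays came from separate animals, and the tests then cover only the variation among these hybridisations, some of which may be technical. Values are MAS5 signals scaled to a common mean, and fold changes are knockout minus wildtype on the log2(signal + 19.1) scale, which understates changes of dim probe sets. Of 14 retina markers, 10 had a probe set and all 10 were tested, photoreceptor genes among them. Of these, 3 had positive and 7 negative log2 fold changes, from -0.18 for Sag to 0.26 for Rcvrn, and 0 passed the test.

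Knockout array 1 stood apart. It correlated with the other arrays at 0.914 to 0.936, against up to 0.979 among the rest. Among the tested genes described here it held the lowest value of 10 of the 34 genes and the highest of 10, or 29.4% each, against 28.2% and 25.3% of all probe sets.

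None of the 34 genes passed the test (limma, Benjamini-Hochberg adjusted p = 0.999 for each), where 0.0147% of all 13575 probe sets tested passed. An unadjusted p under 0.05 was reached by 0 of the 34, against 3.82% of all probe sets. Positive log2 fold changes were found for 17 genes and negative ones for 17, where 50.1% of all probe sets were positive. Their median was 0.0033, against 0.00031 over all probe sets tested. That count moved with the scaling of the arrays: 22 of 34 were positive with median scaling and 30 of 34 without rescaling, settings in which the median of all probe sets was 0.088 and 0.29. In whole retina, fewer cells of a type and less RNA per cell cannot be told apart.

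The 95% interval of the difference lay wholly within 1.5-fold in both directions for 23 of the 34 genes, against 50.4% of all probe sets. The latter include dimmer probe sets of a gene, so the shares are not alike. Of 117 tested genes of the same pathways (below), each also with its brightest probe set, 85 had such intervals. The intervals were those of limma with 3 arrays in each group. The fold changes ran from -0.54 for Sel1l to 0.31 for Sec63, and 0 of the 34 reached 1.5-fold. Each knockout array was below each wildtype array for 3 genes, Pdia3, Atf4 and Ddit3, or 8.82%, against 5.05% of all probe sets. The opposite, each knockout array above each wildtype array, held for 0 genes, against 4.05%. Of the brightest probe sets of 2935 named genes with 2 or more tested, 3.54% were lower and 4.80% higher. Of the 18 such genes described here, 1 was lower (5.56%) and 0 higher. Both counts for the 34 genes depended on the scaling. With quantile normalization 2 genes were lower (Pdia3 and Ddit3) and 1 higher (Calr) without overlap, where 4.54% and 4.73% of all probe sets were. With median scaling 0 were lower and 2 higher (Calr and Hspe1), against 2.62% and 7.30%, and without rescaling 0 were lower and 4 higher (Calr, Xbp1, Syvn1 and Hspe1), against 0.258% and 8.38%. A difference of at least 1.5-fold without overlap was found for 0 of the 34, against 1.61% of all probe sets.

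**Figure D1:**
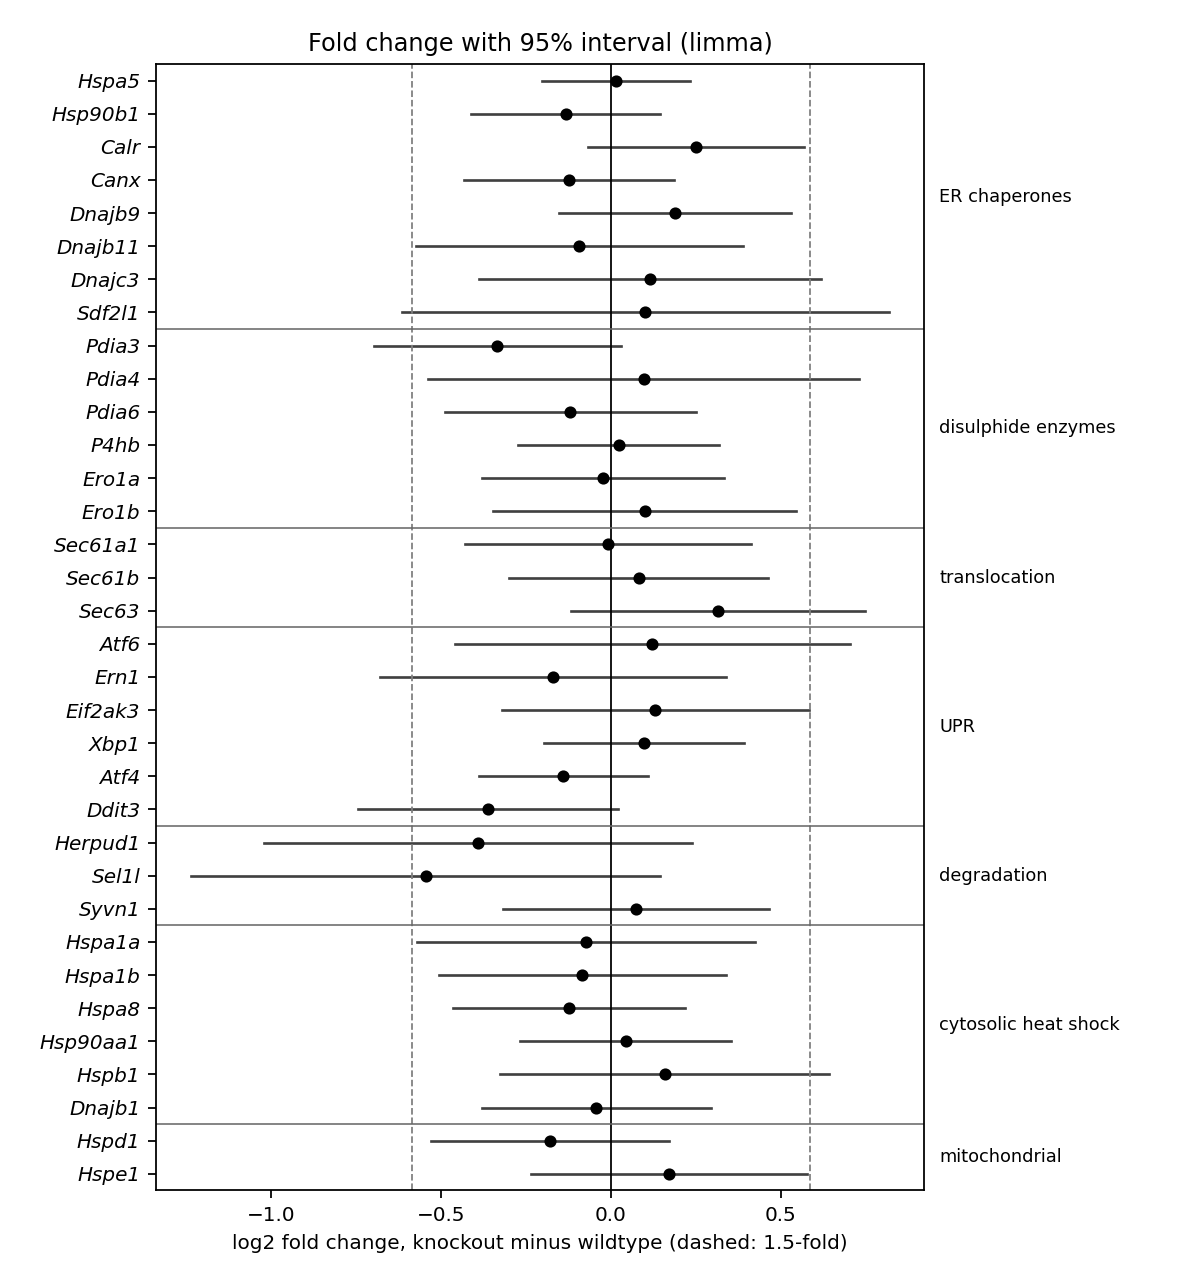
Log2 fold change (knockout minus wildtype) of the 34 tested genes, grouped by role. Points are limma estimates, lines their 95% intervals and dashed lines mark 1.5-fold; every interval crosses 0, and 23 lie between the dashed lines.

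For 6 of the 8 ER chaperones and cofactors, the 95% interval lay within 1.5-fold. Hspa5 (BiP), the ER's main Hsp70 chaperone and the usual gauge of ER stress, had 3463, 3378 and 3652 in knockout retinae, against 3452, 3423 and 3504 in wildtype retinae. The 6 arrays were nearly level, and the log2 fold change was 0.015 ± 0.097 (SE, 95% interval -0.20 to 0.23). Hsp90b1 (Grp94), the ER's Hsp90, had 1244, 1326 and 1416 in knockout and 1412, 1436 and 1524 in wildtype retinae, with 1 knockout array just above the lowest wildtype array (-0.13, 95% interval -0.41 to 0.15).

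The lectin chaperones hold glycoproteins while they fold. The soluble one, Calr, had 3525, 3005 and 3306 in knockout retinae, against 3126, 2937 and 2261 in wildtype retinae. Wildtype array 3 was the lowest, and the groups overlapped, though not under the other 3 scalings, where each knockout array was above each wildtype array (0.25 ± 0.14, 95% interval -0.067 to 0.57; 0.11 without that array). The membrane-bound one, Canx, had 1629, 1768 and 1331 in knockout and 1722, 1691 and 1706 in wildtype retinae (-0.12, 95% interval -0.43 to 0.19).

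Of the chaperones' cofactors, Dnajb9, an Hspa5 partner that represses the sensor Ern1, had 842, 746 and 703 in knockout and 612, 642 and 752 in wildtype retinae, a log2 fold change of 0.19 ± 0.15. Dnajb11 and Dnajc3, further Hspa5 partners, had -0.092 and 0.12. Sdf2l1, which works with Dnajb11, had 208, 70.4 and 90.0 in knockout and 110.0, 109.9 and 88.9 in wildtype retinae. Its value in knockout array 1 was above every other array and that in knockout array 2 below every other array, so that the log2 fold change was 0.10 with all arrays and -0.30 without knockout array 1. Of the 8 genes, 5 had positive and 3 negative values, with a median of 0.058.

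**Figure D2:**
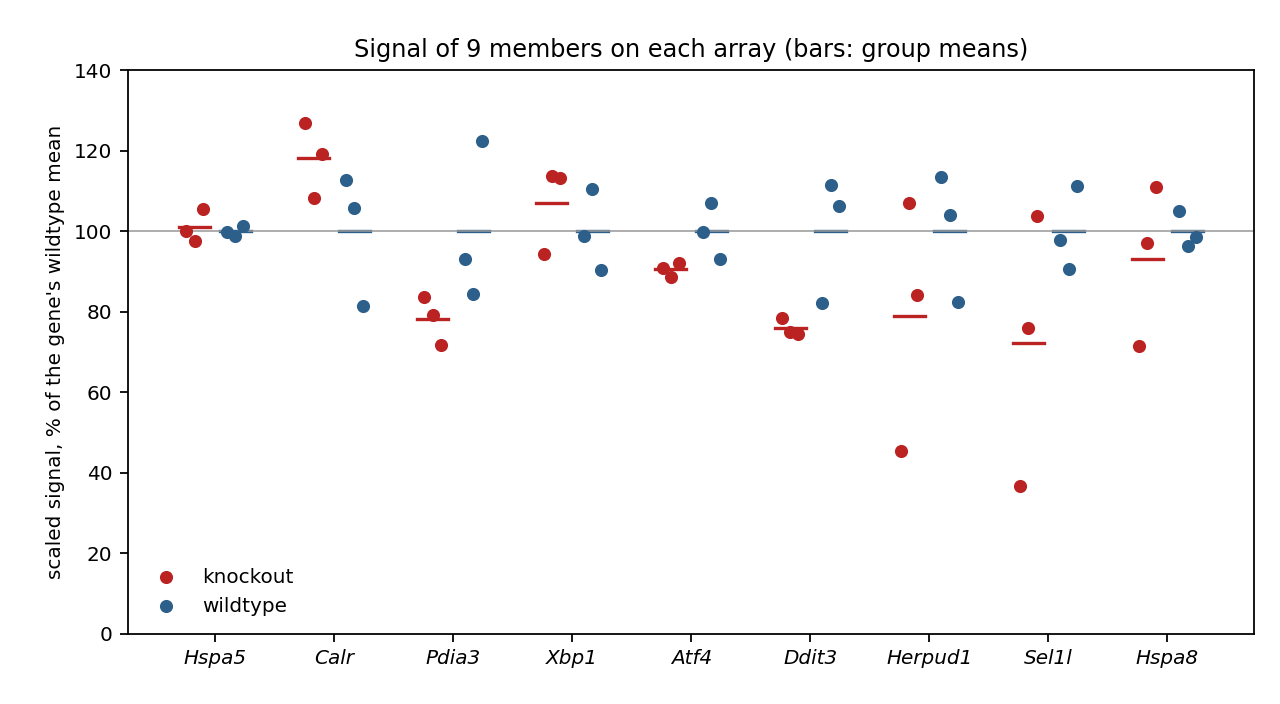
Scaled signal of 9 genes on each array as a percentage of the gene's own wildtype mean, with points for arrays and bars for group means. The knockout points of Ddit3, Pdia3 and Atf4 lie below all wildtype points at this scaling (0 genes do with median scaling), and those of Herpud1 and Sel1l spread widely, with knockout array 1 lowest.

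Some genes of the ER stress response share a promoter element that was first described in the human genes of Hspa5, Hsp90b1 and Calr. It is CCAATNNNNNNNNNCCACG, a CCAAT box and a CCACG site 9 bases apart, through which Atf6 and Xbp1 act together with the CCAAT-binding factor. RefSeq promoters of the GRCm38.p6 build, from 250 bases before to 50 bases after the annotated start, were found for 32 of the 38 genes and searched on both strands. The element was present in 8 of the 32 (25%), against 37 of 27025 genes with a promoter (0.137%). Because some of these genes served to define it, the share is a description. The 9 copies, from chaperone, disulphide enzyme and degradation genes of the list, are shown for their spacers, as the other letters were fixed by the search. Each is read along its own strand, with the letters of the element in capitals and the 9-base spacer in lower case.
Hspa5 (chr2:34772025-34772043, plus strand): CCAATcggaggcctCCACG
Hsp90b1 (chr10:86705533-86705551, plus strand): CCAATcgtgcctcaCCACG
Hsp90b1 (chr10:86705638-86705656, minus strand): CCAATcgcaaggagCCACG
Calr (chr8:84847075-84847093, plus strand): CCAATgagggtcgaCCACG
Canx (chr11:50325800-50325818, minus strand): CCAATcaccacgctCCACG
Dnajc3 (chr14:118937827-118937845, plus strand): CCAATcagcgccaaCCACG
Pdia6 (chr12:17266491-17266509, plus strand): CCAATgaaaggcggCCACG
Ero1b (chr13:12565682-12565700, minus strand): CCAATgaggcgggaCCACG
Syvn1 (chr19:6046532-6046550, plus strand): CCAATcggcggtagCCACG

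The copies began 44 to 212 bases before the start (median 107), 6 of the 9 lay on the strand of the gene, and Hsp90b1 had 1 on each strand. The spacers held 6 or 7 G or C bases out of 9. In the promoter of Hspa5 (chr2:34771840-34772139, plus strand) the element in capitals stands in the following sequence.
Hspa5: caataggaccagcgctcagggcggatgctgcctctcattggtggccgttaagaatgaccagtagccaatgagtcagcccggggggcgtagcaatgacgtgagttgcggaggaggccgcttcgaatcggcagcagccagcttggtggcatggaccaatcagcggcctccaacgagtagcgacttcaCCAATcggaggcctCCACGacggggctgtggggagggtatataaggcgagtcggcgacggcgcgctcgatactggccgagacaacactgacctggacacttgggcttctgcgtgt

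**Figure D3:**
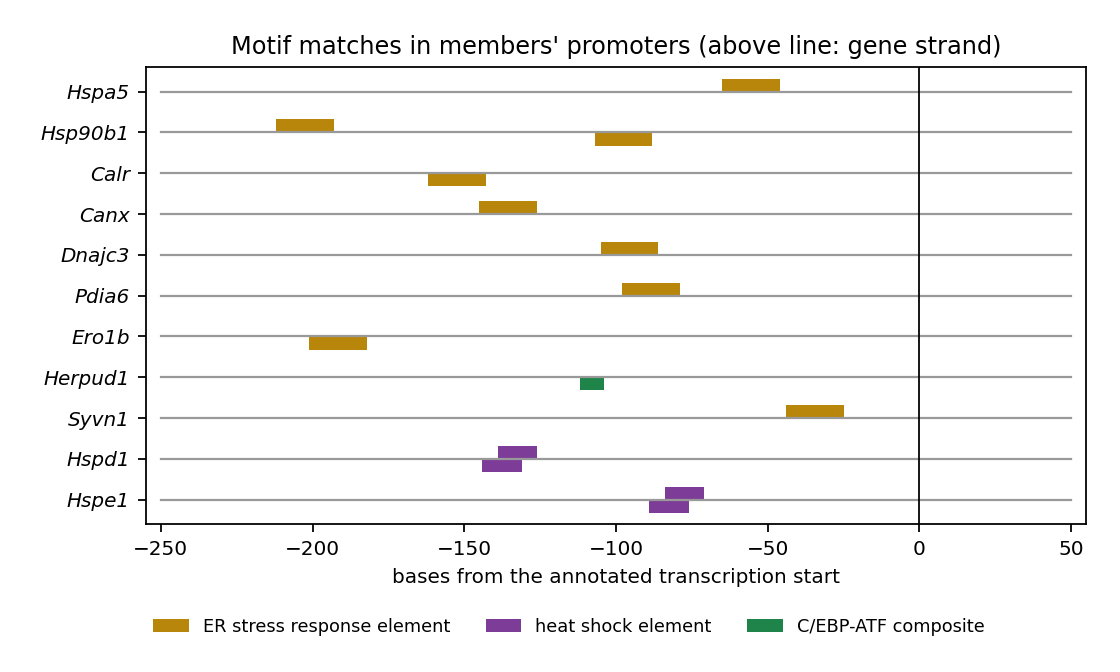
Matches of 3 motifs (the legend names them) in the 11 promoters that hold 1 or more, by distance in bases from the annotated start. Bars above a line are on the gene's strand and bars below it on the other; the ER stress response element begins between 44 and 212 bases before the start.

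Signals of genes with and without the element can be set side by side. Of the 8 genes with the element, all tested, 5 had positive log2 fold changes (median 0.045), and of 22 tested genes whose promoter window lacked it, 10 had (median -0.033). Single parts of the element were common: CCAAT was found in 25 of 32 promoters (78.1%, against 41.1% of all genes) and CCACG in 22 of 32 (68.8%, against 35.5%), overlaps with the full element included. The letters TGACGTGG, of the element that Xbp1 binds alone, were in 0 of the 32 windows, against 0.714% of all genes. The letters TGATGCAA, a composite site of Atf4 and C/EBP factors, were in 1, that of Herpud1, against 1.03%.

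Enzymes that make and shuffle disulphide bonds followed no common direction. Pdia3 (ERp57), which works on glycoproteins held by Calr and Canx, had 1286, 1215 and 1103 in knockout retinae, against 1432, 1297 and 1879 in wildtype retinae. All 3 knockout arrays were lower, by a narrow gap to wildtype array 2 that was lost with median scaling and without rescaling, and wildtype array 3 was the highest. The log2 fold change was -0.33 ± 0.16 (SE, 95% interval -0.70 to 0.029, limma adjusted p = 0.999). It was -0.18 without wildtype array 3 and -0.022 without rescaling of the arrays.

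P4hb, the classical protein disulphide isomerase, had 2161, 2309.7 and 2828 in knockout and 2551, 2256 and 2339.6 in wildtype retinae (0.023, 95% interval -0.27 to 0.32). Pdia6, which also tunes the sensors, had 751, 876 and 1040.3 in knockout and 1022, 843 and 1023 in wildtype retinae (-0.12). Pdia4 (ERp72) had 281, 109.9 and 212 in knockout and 163, 189 and 175 in wildtype retinae, so that knockout arrays 1 and 2 held its highest and lowest value (0.096, and -0.17 without knockout array 1). The oxidases Ero1a and Ero1b, which recharge the isomerases, had -0.024 and 0.10. The group of 6 had 3 positive and 3 negative values.

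The translocation channel was where probe sets of 1 gene disagreed most. Sec61a1 encodes the pore, and its brightest probe set had 1391, 895 and 920.0 in knockout retinae, against 1131, 947 and 1089.6 in wildtype retinae (-0.0086, 95% interval -0.43 to 0.41). Its second brightest had 886, 665 and 1459.7 in knockout and 900.2, 605 and 661 in wildtype retinae, with overlapping groups (0.41). The 3 dimmer tested probe sets were lower on every knockout array than on any wildtype array, as was 1 of them without rescaling, the dimmest.

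The brightest of these 3 had 323, 502 and 473 in knockout retinae, against 642, 744 and 539.6 in wildtype retinae (-0.56 ± 0.20, SE). The next had 223, 374 and 334 in knockout and 518, 485 and 449 in wildtype retinae (-0.64 ± 0.20). The dimmest had 63.0, 124 and 98.1 in knockout and 167, 216 and 166 in wildtype retinae (-0.85 ± 0.23, 95% interval -1.38 to -0.33). Each had an unadjusted p under 0.05 and an adjusted p of 0.999 in limma. Knockout array 1 was the lowest in all 3, and without it their log2 fold changes were -0.37, -0.43 and -0.63.

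Of the channel's other parts, Sec61b, the small beta subunit, had 2192, 1418 and 1612 in knockout and 1688, 1689.7 and 1477 in wildtype retinae (0.083, and -0.094 without knockout array 1, its highest). Sec63, which brings Hspa5 to the channel, had 219.7, 203 and 268 in knockout and 150.0, 176 and 221 in wildtype retinae (0.31 ± 0.19). Its other 3 tested probe sets had negative values, from -0.37 to -0.10.

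The sensors and factors of the unfolded protein response gave no call. The sensor and nuclease Ern1 (IRE1) was near the filter, with 50.6, 91.0 and 79.5 in knockout and 72.4, 88.5 and 90.3 in wildtype retinae (-0.17). The kinase Eif2ak3 (PERK) had 384, 423 and 597 in knockout and 493, 372 and 399 in wildtype retinae (0.13, 95% interval -0.32 to 0.58). Atf6, cut in the Golgi to free a transcription factor, had 181, 311 and 399 in knockout and 267, 225 and 287 in wildtype retinae, where knockout arrays 1 and 3 held the lowest and highest value (0.12).

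Xbp1, the factor whose messenger RNA Ern1 splices, had 2058, 2482 and 2469 in knockout retinae, against 2159, 2413 and 1973 in wildtype retinae (0.098, 95% interval -0.20 to 0.39). The groups overlapped, and splicing is not read out by these values. Of its 4 tested probe sets, the 2 bright ones were positive and the 2 dim ones negative, at -0.28 and -0.49.

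Below Eif2ak3 in the pathway stand Atf4 and Ddit3, which were lower on every knockout array than on any wildtype array at the scaling used, and neither passed the test. With median scaling and without rescaling the groups overlapped for both, and with quantile normalization for Atf4. Without rescaling their log2 fold changes were 0.18 and -0.065, so that the sign of Atf4 turned. Atf4, which drives amino acid and stress genes, had 2238, 2179 and 2265 in knockout retinae, against 2456, 2631 and 2291 in wildtype retinae. The groups did not overlap, but the gap between knockout array 3 and wildtype array 3 was small (-0.14 ± 0.11, 95% interval -0.39 to 0.11). A second probe set had overlapping groups and -0.015.

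Ddit3 (CHOP), the pro-apoptotic target of Atf4, had 251, 239 and 237 in knockout retinae, against 262, 356 and 339 in wildtype retinae. The 3 knockout arrays were close together, at 242 ± 7.30 (SD, n = 3), and wildtype arrays averaged 319 ± 49.9, with wildtype array 1 nearest to the knockout. The log2 fold change was -0.36 ± 0.17 (SE, 95% interval -0.74 to 0.021, limma adjusted p = 0.999), with the smallest unadjusted p of the 34 genes, above 0.05. With 1 array left out it ran from -0.49 to -0.28. Ddit3 has 1 probe set on the array, so no second one could be set beside it.

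**Figure D4:**
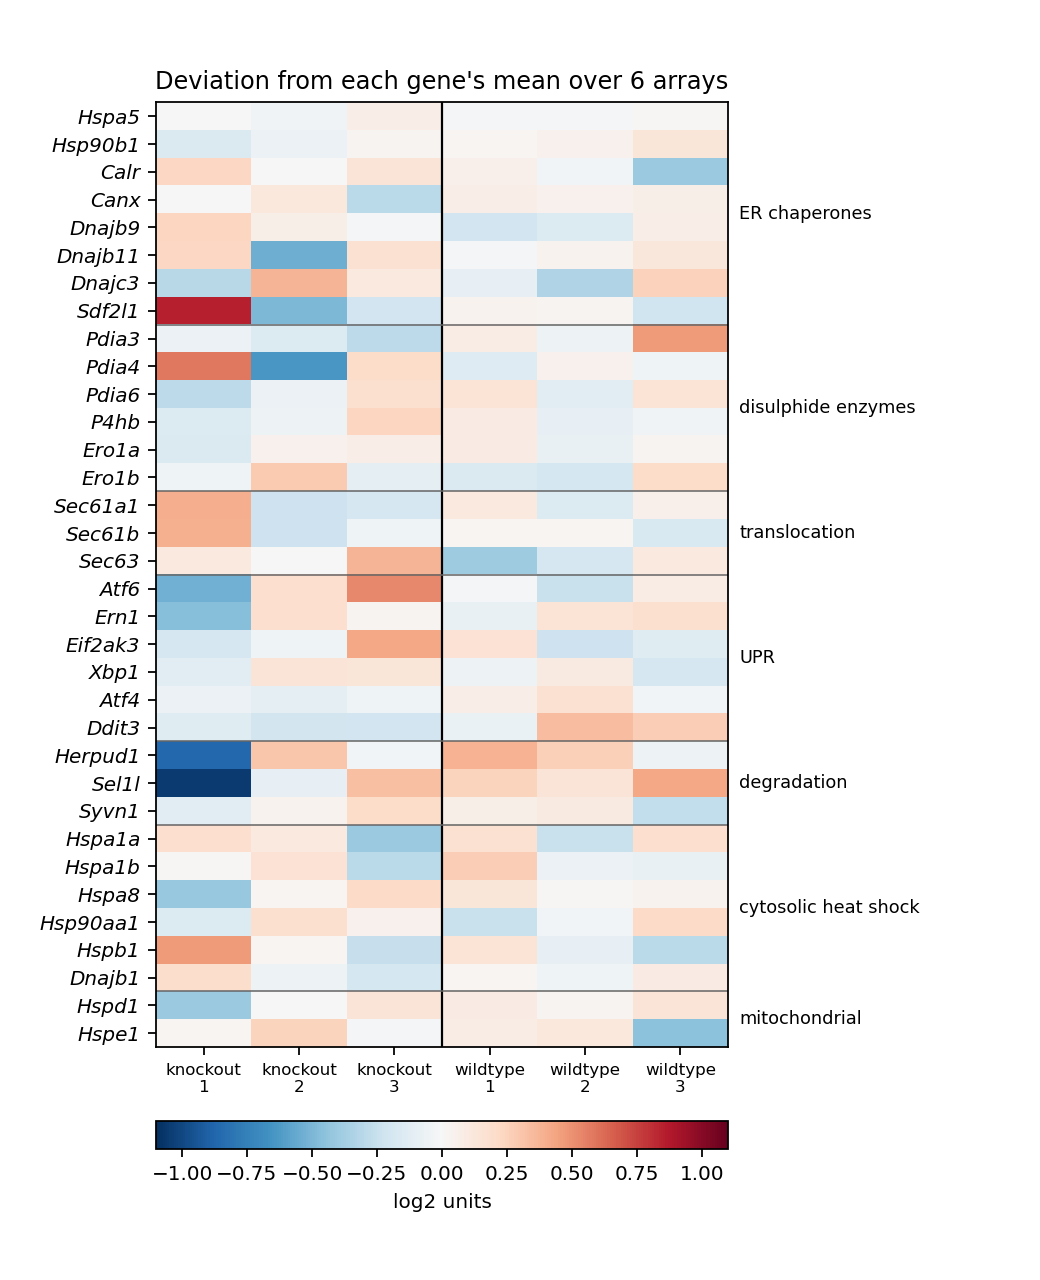
Deviation of each gene on each array from its mean over the 6 arrays, in log2 units (red higher, blue lower), knockout arrays on the left. The strongest colours, of Sel1l and Herpud1 below and Sdf2l1 above the mean, are in knockout array 1.

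Genes of ER-associated degradation, which draw misfolded proteins back to the cytosol, are described here by 3 members. Their residual SD on the log2 scale was 0.51 for Sel1l, 0.45 for Herpud1 and 0.18 for Syvn1, against a median of 0.21 for the 34 genes, 0.23 for all probe sets and 0.18 for 17 related degradation genes. Sel1l, the scaffold of the Hrd1 ubiquitin ligase, had 129.9, 269.9 and 368 in knockout retinae, against 347, 322 and 395 in wildtype retinae. Knockout array 1 was far below the rest and knockout array 3 lay within the wildtype range. The log2 fold change was -0.54 ± 0.31 (SE, 95% interval -1.24 to 0.15, limma adjusted p = 0.999), and -0.16 without knockout array 1.

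All 4 probe sets of Sel1l were tested, and all had negative values, from -0.71 to -0.47. The one with the most negative value had 46.7, 143 and 140.1 in knockout and 152, 203 and 175 in wildtype retinae, with no overlap, though with overlap under median scaling and without rescaling. Without knockout array 1 the 4 values ran from -0.33 to -0.16.

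Herpud1, a membrane partner of that ligase and an early stress target, had 201, 474 and 373 in knockout and 502, 460.1 and 365 in wildtype retinae. Knockout array 1 was the lowest (-0.39 ± 0.28, and -0.059 without it), and a second probe set had 297, 336 and 358 in knockout and 344, 374 and 346 in wildtype retinae (-0.098). Syvn1 (Hrd1), the ligase itself, had 333, 376 and 423 in knockout and 383, 392 and 299.6 in wildtype retinae (0.074, 95% interval -0.32 to 0.47). The scaffold and its ligase thus had values of opposite sign, and neither passed the test.

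For 5 of the 6 cytosolic heat shock genes, the 95% interval lay within 1.5-fold. Hspa8, the constitutive Hsp70, had 3109, 4213 and 4816 in knockout retinae, against 4562, 4187 and 4279 in wildtype retinae (-0.12, 95% interval -0.47 to 0.22). Knockout array 1 was the lowest and knockout array 3 the highest of the 6. Hsp90aa1, an Hsp90 of the cytosol, had 3766, 4734 and 4327 in knockout and 3532, 4114 and 4850.4 in wildtype retinae (0.043, 95% interval -0.27 to 0.35).

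The inducible Hsp70 genes Hspa1a and Hspa1b are near-identical neighbours, and their probe sets may read both. Hspa1a had 145, 136 and 89.4 in knockout and 142, 102 and 144 in wildtype retinae (-0.074), and Hspa1b had 251, 279 and 198 in knockout and 302, 237 and 234 in wildtype retinae (-0.084). Dnajb1, the Hsp40 that works with them, had -0.043 (95% interval -0.38 to 0.29). The small heat shock protein Hspb1 had 552, 399 and 326 in knockout and 437, 368 and 317 in wildtype retinae, highest in knockout array 1 (0.16, and -0.038 without it). Of these 6 genes, 2 had positive and 4 negative values, with a median of -0.058.

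Hspd1 (Hsp60) and Hspe1 (Hsp10) form the mitochondrial chaperonin. At the starts used below, they are transcribed away from each other from 1 shared promoter region. Hspd1 had 1256, 1671 and 1840.0 in knockout and 1785, 1710.3 and 1842 in wildtype retinae (-0.18, and -0.020 without knockout array 1, the lowest). Hspe1 had 1014, 1185 and 987 in knockout and 1054, 1084 and 724 in wildtype retinae, where wildtype array 3 was the lowest (0.17, and -0.013 without it).

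The heat shock element GAANNTTCNNGAA, the triple site read by Hsf1, was found in the windows of this pair alone among the 32 promoters (6.25%, against 0.662% of all genes). Both genes hold the same 2 overlapping copies, at chr1:55088059-55088071 on the minus strand and chr1:55088064-55088076 on the plus strand (GRCm38.p6), shown with the fixed letters in capitals.
Minus strand: GAAggTTCtaGAA
Plus strand: GAAccTTCcgGAA

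The minus-strand copy begins 139 bases before the start used for Hspd1 and 89 bases before that of Hspe1. The plus-strand copy begins 144 and 84 bases before them. A second RefSeq window of Hspd1 (chr1:55088194-55088493, minus strand) held no copy. Neither Hspa1a nor Hspa1b had the letters of the element in its window, which says nothing of the rest of their promoters.

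Of the 34 genes, 18 had 2 or more tested probe sets, and in 9 of these all had 1 sign. They were negative in 7 (Canx, Ero1a, Herpud1, Dnajb1, Sel1l, Hspa1b and Atf4) and positive in 2 (Dnajc3 and Hspa5). The same counts over all named genes are not given here. The values of 1 gene differed by over 0.5 on the log2 scale for Sec61a1, Sec63, Xbp1 and Canx. A dimmer probe set of Canx had 145, 154 and 199 in knockout and 210.4, 354 and 320.1 in wildtype retinae with no overlap (-0.75 ± 0.22, limma adjusted p = 0.999), while its brightest had -0.12. A dimmer one of Ero1a had 79.9, 163 and 138 in knockout and 169, 201 and 172 in wildtype retinae, also with no overlap (-0.49). Both pairs of groups overlapped with median scaling and without rescaling.

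**Figure D5:**
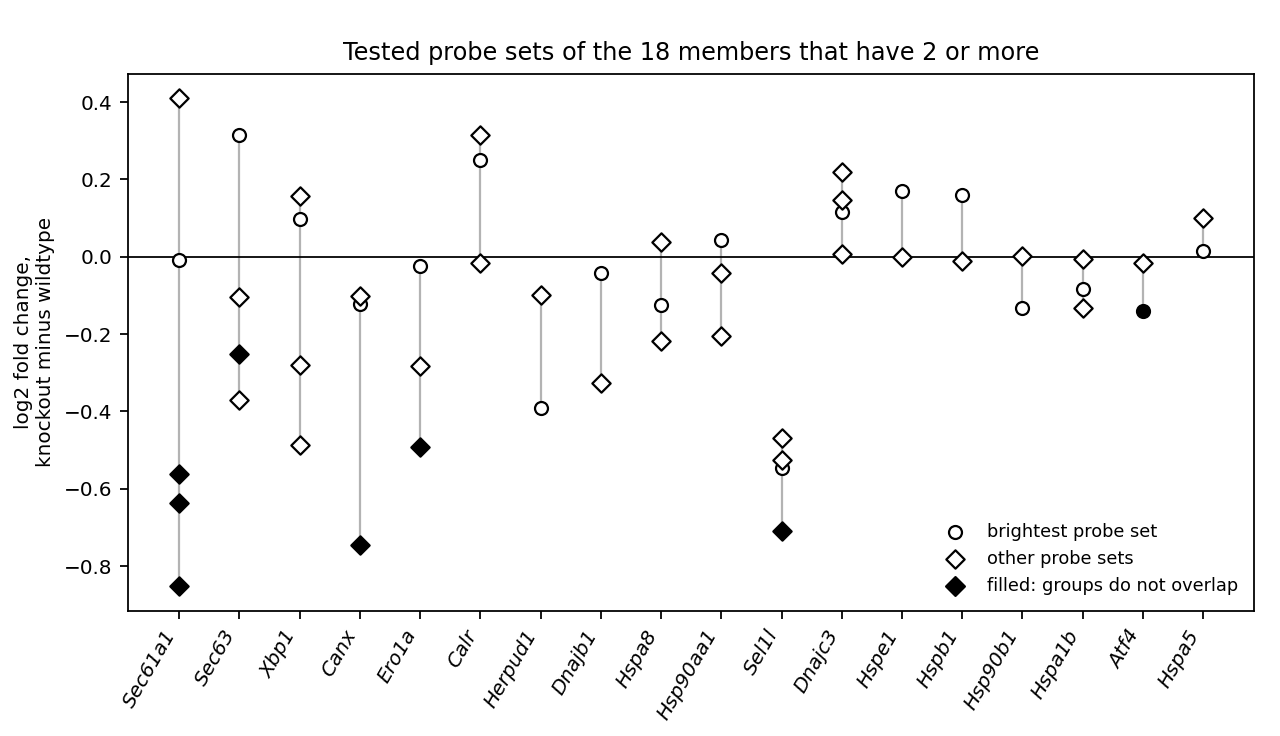
Log2 fold change (knockout minus wildtype) of every tested probe set of the 18 genes with 2 or more, ordered by the spread within the gene. Circles are the brightest probe sets, diamonds the others, and filled symbols mark groups without overlap; all 8 filled symbols lie below 0 at this scaling, of which the 3 dimmer probe sets of Sec61a1 stay without overlap with median scaling.

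Beyond the brightest, these genes had 35 further tested probe sets, and 26 of them were negative (74.3%), with 7 lower on every knockout array (20%) and 0 higher on every one. With quantile normalization 23 were negative, 7 lower and 0 higher. With median scaling 20 were negative, 3 lower (all of Sec61a1) and 1 higher (Dnajc3), and without rescaling 12 were negative, 1 lower (Sec61a1) and 3 higher (of Calr and Dnajc3). At the scaling used, a lean to negative values was present over the whole array: of 4381 such probe sets of all named genes, 59.5% were negative, with 8.31% lower and 3.06% higher without overlap. Of the brightest probe sets of those genes, 45.5% were negative. For the other scalings, shares are given over all tested probe sets, not only those beyond the brightest. With quantile normalization, 4.54% were lower and 4.73% higher without overlap. With median scaling these shares were 2.62% and 7.30%, and without rescaling 0.258% and 8.38%. The median of all probe sets was 0.019, 0.088 and 0.29 in these settings. Their shares of negative values are not given. The 35 come from 18 genes and share arrays, so they are no independent counts. As a measure of RNA quality, the 3' control probe set of Actb over its 5' one gave 2.17, 1.69 and 1.90 on knockout arrays and 1.64, 1.44 and 1.59 on wildtype arrays, without overlap. The same ratio of Gapdh gave 1.18, 0.884 and 1.16 on knockout arrays and 0.982, 0.824 and 0.880 on wildtype arrays, with overlap. The part of RNA quality in these values was not tested.

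Other genes of the same pathways, 142 in 6 lists, were set beside these. A probe set of 1 gene was found for 125, and 117 were tested. In limma 0 of the 117 passed the adjusted threshold and 1 had an unadjusted p under 0.05. Positive values were found for 56 and negative for 61, with a median of -0.013. At the scaling used, 2 of the 117 were lower and 3 higher on every knockout array, against 5.05% and 4.05% of all probe sets. Positive values numbered 7 of 12 for further ER chaperones and 5 of 8 for the disulphide isomerase list, which also holds Prdx4 and Qsox1. They numbered 10 of 25 for translocation and signal sequence processing, 8 of 17 for ER stress signalling and 10 of 17 for degradation. The list of heat shock genes and cytosolic chaperones, which also holds mitochondrial ones such as Hspa9, had 16 of 38.

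The 6 related genes with the smallest unadjusted p did not pass either (limma adjusted p = 0.999 for each). Fkbp4, a co-chaperone of Hsp90, had 325, 462 and 422 in knockout and 505, 562 and 682 in wildtype retinae, lower on every knockout array than on any wildtype array (-0.52 ± 0.19, SE). Bag1, which releases Hsp70 clients, had 705, 508 and 546 in knockout and 463, 423 and 447 in wildtype retinae, higher on every knockout array (0.37). Erp29, a non-catalytic member of the isomerase family, had 490.3, 381 and 491 in knockout and 366, 369 and 316 in wildtype retinae, also without overlap (0.35).

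Sec61a2, the second pore gene, had 118, 439.6 and 413 in knockout and 486, 447 and 502 in wildtype retinae (-0.73). Its groups did not overlap, and knockout array 1 was far below the other 5. The mitochondrial Hsp70 Hspa9 had 425, 767 and 740.1 in knockout and 743, 745 and 980.1 in wildtype retinae, lowest in the same array (-0.38). Creb3l1, an ER-anchored transcription factor, had -0.40 with overlapping groups. The ER stress response element was found in 2 of 115 related genes with a promoter, Creld2 and Derl3, with log2 fold changes of 0.15 and -0.11.

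Retina markers gave summed signals of 23568 to 27930.4 on knockout arrays and 27225 to 28370.1 on wildtype arrays, over the 10 of 14 with a probe set, lowest in knockout array 1. The lens list, whose cells also carry small heat shock proteins, had 14 of 18 genes with a probe set. It summed to 722, 370 and 1301 on knockout arrays and 249, 276 and 2212 on wildtype arrays, highest in wildtype array 3. That array also held the highest value of Pdia3 and the lowest of Calr and Hspe1. All 7 tested lens genes had positive log2 fold changes (median 0.45). Pigment epithelium (7 of 9 genes) summed to 2215 to 3431 on knockout and 1184 to 3094 on wildtype arrays, and blood (6 of 9) to 116 to 173 on knockout and 122 to 152 on wildtype arrays. Microglia (10 of 10) summed to 1558 to 2442 on knockout and 1559.7 to 1803 on wildtype arrays. Secretory cell genes (4 of 6) summed to 1220.4 to 1632 on knockout and 1164 to 1427 on wildtype arrays. Most of each secretory sum was Prdm1 alone, with 801, 946 and 1272 in knockout and 1041, 817 and 1036 in wildtype retinae. That sum therefore mainly follows 1 gene and cannot be read as a level of secretory cells. Skeletal muscle genes (9 of 9) summed to 344 to 429 on knockout arrays and 488 to 616 on wildtype arrays, without overlap at the scaling used. Sums under other scalings are not given here. Of the listed genes, the filter left 10 of retina, 7 of lens, 6 of pigment epithelium, 1 of blood, 8 of microglia, 4 secretory and 4 of muscle. Of these tested genes, 0 passed in limma. The part of other tissues in the values above was not tested.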

How the data were processed

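The deposited values are linear MAS5 intensity values, 1 per probe set and array, per the submitters' processing notes. The MAS5 version, its scaling target and any detection calls are not given in the sources used here. Trimmed means ran from 171 to 312, so no common target level was shared by the arrays. The 64 control probe sets were left out, which left 22626.

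Each array was divided by its trimmed mean (2% off either end) and brought to a shared level. Before log2, 19.1 was added, a pseudocount equal to the 20th percentile of signals. Only the 13575 probe sets averaging over 62.4, the 40th percentile, were tested. The difference knockout minus wildtype came from limma 3.58.1 under R 4.3.3 (lmFit, then eBayes with trend), with Benjamini-Hochberg adjustment over all 13575. The fit was tested on simulated data.

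Names came from the platform's probe set annotation, and symbols were updated through Entrez identifiers (20351 of 20380 with 1 symbol matched). Probe sets with several symbols (691) or none (1555) were not named. The members and lists were chosen with earlier results of these data known. Every member is named. Of the related genes, the 6 with the smallest unadjusted p are named. Marker lists covered retina, lens, pigment epithelium, skeletal muscle, blood, microglia and secretory cells. Sequences are from RefSeq (GRCm38.p6). Promoter motifs were chosen after the fit had been seen. The targeted gene is not reported here. Alternatives covered scaling, pseudocount, filter, variance trend, array weights, a replicate block, each array left out and the probe sets of a gene averaged.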

Additional observations from a re-analysis of the deposited data

How the results depend on the processing

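In the settings run, 0 members and 0 related genes passed the adjusted threshold in limma, and the lowest adjusted p of a member was 0.62, without knockout array 2. Calls over the whole array, 2 as reported, numbered 10 without rescaling, 1 with no filter and 4 without knockout 1 and wildtype 2. Leaving out single arrays gave 0 to 4 calls. There were 0 without wildtype 3, 4 without wildtype 2 and 1 without knockout 2 or 3. The median of the members (0.0033) was 0.097 with median scaling, 0.32 without rescaling and -0.074 with the probe sets of a gene averaged, where dimmer probe sets enter. Without rescaling 30 members were positive. Members 1.5-fold apart without overlap numbered 0 in every setting but 1, without knockout 3, where Sel1l was the 1 counted, so the range was 0 to 1. Members lower on every knockout array (3) numbered 0 with median scaling and without rescaling and 6 without knockout 1 and wildtype 2, and 3 to 6 with 1 array left out (6 without knockout 3, 5 without knockout 1). Members higher on every knockout array (0) numbered 1 with quantile normalization, 2 with median scaling, 4 without rescaling and 2 without knockout 1 and wildtype 2, and 0 to 3 with 1 array left out (3 without knockout 2 or wildtype 3, 2 without knockout 1 and 1 without wildtype 1). Groups of fewer arrays part more easily, so counts with arrays left out do not compare with those of all 6 arrays. No share over all probe sets is given beside them. The cause of these changes was not tested.

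Signs turned among values that had not passed. Without rescaling, where all probe sets shifted by 0.29, Hsp90b1 (0.18), Canx (0.19), Dnajb11 (0.21), Pdia6 (0.19), Ero1a (0.27), Sec61a1 (0.30), Ern1 (0.074), Atf4 (0.18), Hspa1a (0.19), Hspa1b (0.21), Hspa8 (0.19), Dnajb1 (0.27) and Hspd1 (0.14) became positive. With median scaling Ero1a (0.064), Sec61a1 (0.084), Hspa1a (0.0070), Hspa1b (0.0043) and Dnajb1 (0.050) did. With array weights, which gave knockout array 1 the lowest weight (0.33), Sdf2l1 (-0.20), Pdia4 (-0.033), Ero1a (0.030), Sec61b (-0.058), Hspa8 (0.0031) and Hspb1 (-0.046) turned. Without knockout 1 and wildtype 2, Sdf2l1 (-0.26), Pdia4 (-0.12), Ero1a (0.0032), Sec61b (-0.062), Ern1 (0.058), Hspa8 (0.028) and Hspb1 (-0.043) did. With probe sets averaged, Sec63 (-0.10), Xbp1 (-0.13) and Hsp90aa1 (-0.069) did.

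With 1 array left out, signs turned within the ranges given. Without knockout 1, Sdf2l1 (-0.30 to 0.37), Pdia4 (-0.17 to 0.44), Sec61b (-0.094 to 0.22), Ern1 (-0.31 to 0.024), Hspa8 (-0.26 to 0.054), Hspb1 (-0.038 to 0.33) turned. Without knockout 1 or wildtype 1, Ero1a (-0.069 to 0.048) turned. Without knockout 2, Dnajb11 (-0.23 to 0.15), Ero1b (-0.019 to 0.23) turned. Without knockout 2 or wildtype 2, Dnajc3 (-0.042 to 0.30) turned. Without knockout 2 or knockout 3 or wildtype 1 or wildtype 3, Sec61a1 (-0.21 to 0.10) turned. Without knockout 2 or wildtype 1, Hsp90aa1 (-0.069 to 0.16) turned. Without knockout 3, Hspa5 (-0.016 to 0.040), Atf6 (-0.11 to 0.42), Eif2ak3 (-0.051 to 0.26), Hspa1a (-0.21 to 0.11), Dnajb1 (-0.15 to 0.045) turned. Without knockout 3 or wildtype 2, P4hb (-0.090 to 0.10) turned. Without knockout 3 or wildtype 3, Syvn1 (-0.043 to 0.16) turned. Without knockout 3 or wildtype 1, Hspa1b (-0.18 to 0.045) turned. Without wildtype 3, Hspe1 (-0.013 to 0.27) turned.

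The replicate block fit called 0 members, with the lowest adjusted p at 0.88 (Sel1l, log2 fold change -0.54), and 2 probe sets in all, as without the block. Deviations of same-numbered arrays from their group means correlated at 0.18, -0.029 and 0.084, and knockout 2 correlated best with wildtype 3 (0.26), so the numbers were not taken as pairs. With 3 arrays in each group, only differences large against the spread between arrays can be called.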
